A study of Mus musculus with 2 samples.

Results

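The 9 striated muscle myosin heavy chain genes Myh4, Myh1, Myh2, Myh7, Myh7b, Myh6, Myh3, Myh8 and Myh13 were followed through 2 total RNA-seq libraries of mouse gastrocnemius, the large calf muscle. They were chosen by symbol as sarcomeric heavy chains, not by their measured levels, but with earlier results of these data known. They are 9 of the 55536 genes in the gene table, with 38 annotated transcripts. The libraries, replicate 2 and replicate 1, form 1 group: gastrocnemius of 36-day-old female B6CASTF1/J mice, F1 hybrids with a laboratory and a castaneus parent strain, with 300 ng of RNA per library and synthetic spike-in RNAs added. No treatment, genotype or second tissue was included, so the values below compare the heavy chains with each other, the 2 libraries, and 2 ways of assigning reads to transcripts. The labels give each tissue sample its own replicate number without saying whether 2 animals were used. Part of the spread may thus be technical, and no p-value is given.

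A myosin heavy chain is the motor subunit of the thick filament: its head binds actin and splits ATP, and its long tail packs into the filament backbone. A muscle fibre is typed mainly by the heavy chain it uses. In mouse limb muscle Myh4 encodes the fastest chain, called 2B, Myh1 encodes the 2X chain, Myh2 encodes the 2A chain and Myh7 encodes the slow chain of type I fibres, also the beta chain of the heart ventricle. Myh6 encodes the alpha chain of heart muscle, Myh7b a slow-type chain known from specialised fibres, Myh3 the embryonic chain, Myh8 the neonatal chain and Myh13 the chain of extraocular muscle.

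The genes lie at 3 places in mm10. A cluster on chromosome 11, from 67078300 to 67371586 (293.3 kb), holds Myh3, Myh2, Myh1, Myh4, Myh8 and Myh13 in that order, all on the plus strand. Myh6 and Myh7 lie side by side on the minus strand of chromosome 14, from 54941921 to 54994626 (52.7 kb), and Myh7b lies alone on the plus strand of chromosome 2, from 155611212 to 155634307. Their full-length transcripts encode chains of 1935 (Myh7) to 1942 residues (Myh1 and Myh2). Myh4 shared 94.95% of aligned residues with Myh1, 93.09% with Myh2 and 92.25% with Myh8, against 81.71% with Myh7 and 67.49% with Myh7b. Myh7 and Myh6 shared 93.54%.

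The likeness reaches the RNA, which sets how surely a read can be given to 1 gene. The 60-base coding stretch below, codons 441 to 460 in the motor head (chr11:67245718-67245777 in Myh4, mm10, plus strand), was the same in Myh4, Myh1, Myh2 and Myh8, and is shown once as an example of sequence in which a read cannot tell these 4 genes apart.

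Myh4, Myh1, Myh2 and Myh8: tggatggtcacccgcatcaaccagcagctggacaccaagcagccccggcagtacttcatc

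Codons 614 to 633 of the same 4 chains were the most different of the 1838 windows of that length, with 32 of 60 bases differing, and are shown because reads here can be told apart. Capitals mark positions at which the 4 genes are not all the same. The stretches lie in mm10, plus strand, at chr11:67248698-67249227 for Myh4 (an intron between), chr11:67209105-67209164 for Myh1, chr11:67181287-67181984 for Myh2 (an intron between) and chr11:67289779-67289944 for Myh8 (an intron between).

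Myh4: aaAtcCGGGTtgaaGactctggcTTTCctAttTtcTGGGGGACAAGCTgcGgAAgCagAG
Myh1: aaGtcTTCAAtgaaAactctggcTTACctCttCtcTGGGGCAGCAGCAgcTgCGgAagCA
Myh2: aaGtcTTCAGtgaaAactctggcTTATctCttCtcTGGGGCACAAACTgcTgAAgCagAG
Myh8: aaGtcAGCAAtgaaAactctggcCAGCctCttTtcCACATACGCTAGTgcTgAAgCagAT

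In full-length transcripts, 228 of the 5917 windows of 100 bases in Myh4 (3.85%) also occurred in another heavy chain gene. The read length of 100 bases was taken from the effective lengths in the deposited table. For Myh1 the shared part was 582 of 5982 windows (9.73%), of which 454 occurred in Myh2 and 133 in Myh4. Myh7 shared 687 of 6036 windows (11.4%), all of them with Myh6, and Myh7b shared none. Only 10 windows occurred in all of Myh1, Myh2, Myh4 and Myh8, and none of the windows of any member occurred in the annotated transcripts of a gene outside the 9, read on the transcript strand. The posterior SD in the deposited gene table, a score of how surely counts were assigned, was small beside the counts of Myh1: 138 of 227815 in replicate 2 and 76.1 of 23505 in replicate 1. It was larger beside some low counts, at 11.2 of 294 for Myh13 in replicate 2 and 0.78 of 4 for Myh6 in replicate 1. The score does not cover the choice of method: the reads-based assignment used below gave Myh1 31697 counts in replicate 1.

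Estimated counts in the gene tables summed to 40656175 for replicate 2 and 37735687 for replicate 1. The 9 genes took 6.01% of the gene counts in replicate 2 and 7.62% in replicate 1. Per length, the levels of the 9 summed to 13011 in replicate 2 and 15814 in replicate 1, in TPM, a level scaled to transcript length and to the library's total. Levels are compared between genes in TPM. Differences between the libraries are log2 ratios of scaled counts, replicate 2 over replicate 1, with a 95% exact (Clopper-Pearson) interval that covers counting error only and no difference between animals.

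**Figure D1:**
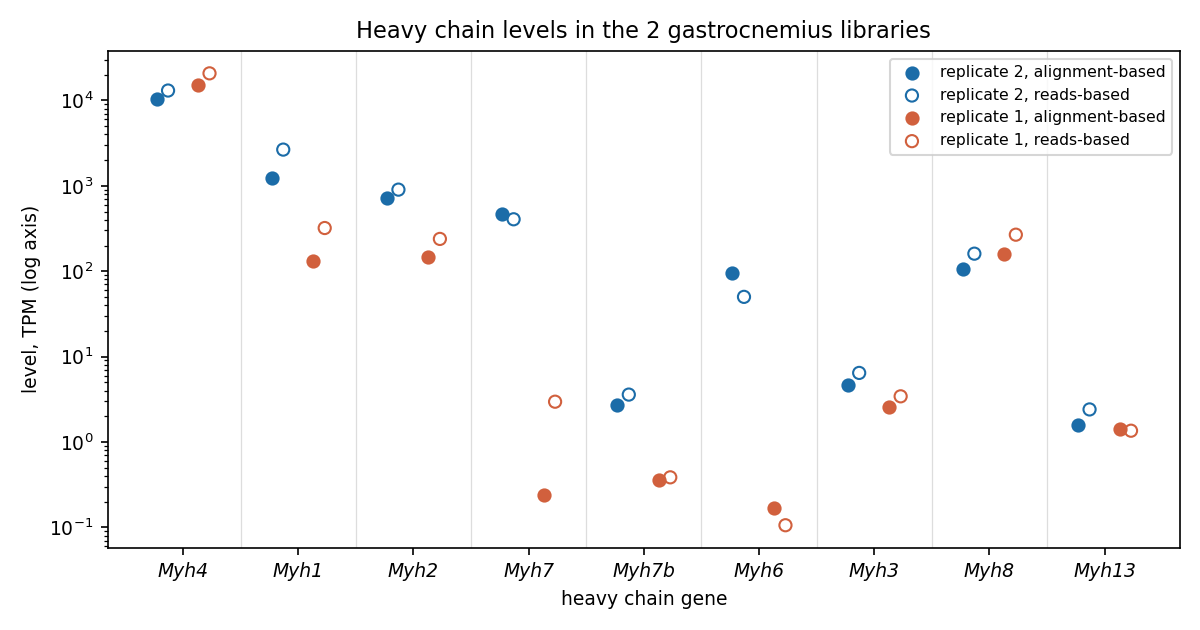
Level of each heavy chain gene in TPM on a log axis, replicate 2 at left and replicate 1 at right within each gene, filled points from the alignment-based table and open points from the reads-based table. Myh4 is the highest in both libraries, at 10376 TPM in replicate 2, against 15369 TPM in replicate 1, and Myh7 and Myh6 have the widest gap between the libraries.

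Myh4, the 2B chain, stood at 10376 TPM in replicate 2, against 15369 TPM in replicate 1 (12873 ± 3531, SD, n = 2). It ranked 6 among protein-coding genes in replicate 2 and 5 in replicate 1. Myh4 was 8.47 times the next heavy chain, Myh1, in replicate 2 and 95.6 times the next, Myh8, in replicate 1, in the alignment-based table. The reads-based table gave Myh4 13076 TPM and Myh1, the next, 2658 TPM in replicate 2, and Myh4 20785 TPM and Myh1, again the next, 321 TPM in replicate 1. It held 79.8% of the summed heavy chain TPM in replicate 2 and 97.2% in replicate 1. Its log2 ratio was -0.56, that is, 1.47-fold lower in replicate 2 (counting interval 1.468 to 1.474). All Myh4 counts were placed on the transcript Myh4-201 of 6016 bases, and the other annotated transcript, which has the same coding sequence, was listed at 0 TPM in the alignment-based tables of both libraries.

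Myh1, the 2X chain, was the second of the fast chains in replicate 2. It stood at 1224 TPM in replicate 2, against 132 TPM in replicate 1, a log2 ratio of 3.21 (9.24-fold, 9.12 to 9.37). Myh2, the 2A chain, stood at 728 TPM in replicate 2, against 147 TPM in replicate 1, a log2 ratio of 2.29 (4.89-fold, 4.83 to 4.96). Both chains were higher in the library with less Myh4. Together with Myh4 they summed to 12329 TPM in replicate 2, against 15648 TPM in replicate 1. Most of each sum was Myh4, so the sums had to lie closer between the libraries than Myh1 or Myh2 did. In replicate 2 Myh1 was above Myh2 in both kinds of table. In replicate 1 their order depended on the table: the alignment-based table gave Myh1 132 and Myh2 147 TPM, and the reads-based table gave Myh1 321 and Myh2 239 TPM.

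Myh7, the slow chain, stood at 472 TPM from 61949 counts in replicate 2, against 0.24 TPM from 28 counts in replicate 1. The log2 ratio was 11.02, with a fold of 2110 and an interval of 1460 to 3175 that is wide because it rests on those 28 counts. In the reads-based table Myh7 had 65027 counts in replicate 2 and 220 in replicate 1, and the log2 ratio was 8.14. Of those 220 counts, 119 were on the full-length Myh7-201 and 95.1 on Myh7-202, a transcript with a retained intron. With transcripts over 5000 bases alone, the ratio was 11.03 by alignment and 9.02 in the reads-based table. The direction was the same in each of these settings, and the size of the fold rests on 28 counts in replicate 1 by alignment and 220 in the reads-based table. In bulk RNA, fewer slow fibres and less Myh7 RNA per fibre cannot be told apart, and the same holds for each chain.

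Myh6, the alpha heart chain, followed Myh7 at a lower level. It stood at 96.6 TPM from 4270 counts in replicate 2, against 0.17 TPM from 4 counts in replicate 1, a log2 ratio of 9.82 (1018-fold, 397 to 3738). The reads-based log2 ratio was 8.09, from 3536 counts in replicate 2 and 11.9 in replicate 1. The TPM value overstated the full-length transcripts: those alone gave 16.4 TPM in replicate 2, against 0.01 TPM in replicate 1. Counted over full-length transcripts, Myh6 was 5.22% of Myh7 in replicate 2 in the alignment-based table and 5.0% in the reads-based table. Myh6 and Myh7 had the same posterior SD, 31.6 counts in replicate 2 and 0.78 in replicate 1. Markers of heart muscle did not accompany Myh6: the 11 genes of that list summed to 0.38 TPM in replicate 2, against 0.14 TPM in replicate 1, and Nppb, Myl7, Nkx2-5, Gata4 and Tbx20 were listed at 0 counts in both gene tables. In the reads-based table Tbx20 had 64.6 counts in replicate 2 and 79.3 in replicate 1.

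Myh7b was the lowest of the chains that were past 2-fold. It stood at 2.68 TPM from 311 counts in replicate 2, against 0.36 TPM from 44 counts in replicate 1, a log2 ratio of 2.74 (6.74-fold, 4.90 to 9.47). Its posterior SD was 0 in both libraries, and the reads-based table gave a log2 ratio of 2.77. Trpc4ap, on the opposite strand, overlaps the end of Myh7b and had 3449 counts in replicate 2 and 3596 in replicate 1. The sources used here do not state that strand was used in counting, so overlapping genes on opposite strands may share reads.

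The developmental chains were both within 2-fold in the alignment-based table. Myh8, the neonatal chain, stood at 105 TPM in replicate 2, against 161 TPM in replicate 1, a log2 ratio of -0.59, that is, 1.5-fold lower in replicate 2 (1.48 to 1.53), close to the ratio of Myh4. Myh8 was above Myh1 and Myh2 in replicate 1 by alignment, and below both in replicate 2. Myh3, the embryonic chain, stood at 4.61 TPM from 878 counts in replicate 2, against 2.55 TPM from 459 counts in replicate 1, a log2 ratio of 0.87 (1.82-fold, 1.63 to 2.05). Myh13 was detected at 1.59 TPM from 294 counts in replicate 2, against 1.40 TPM from 245 counts in replicate 1. Its log2 ratio was 0.19 (1.14-fold), with an interval of 0.962 to 1.36 that includes 1. The reads-based table gave Myh13 370 counts in replicate 2 and 182 in replicate 1, a log2 ratio of 0.95.

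**Figure D2:**
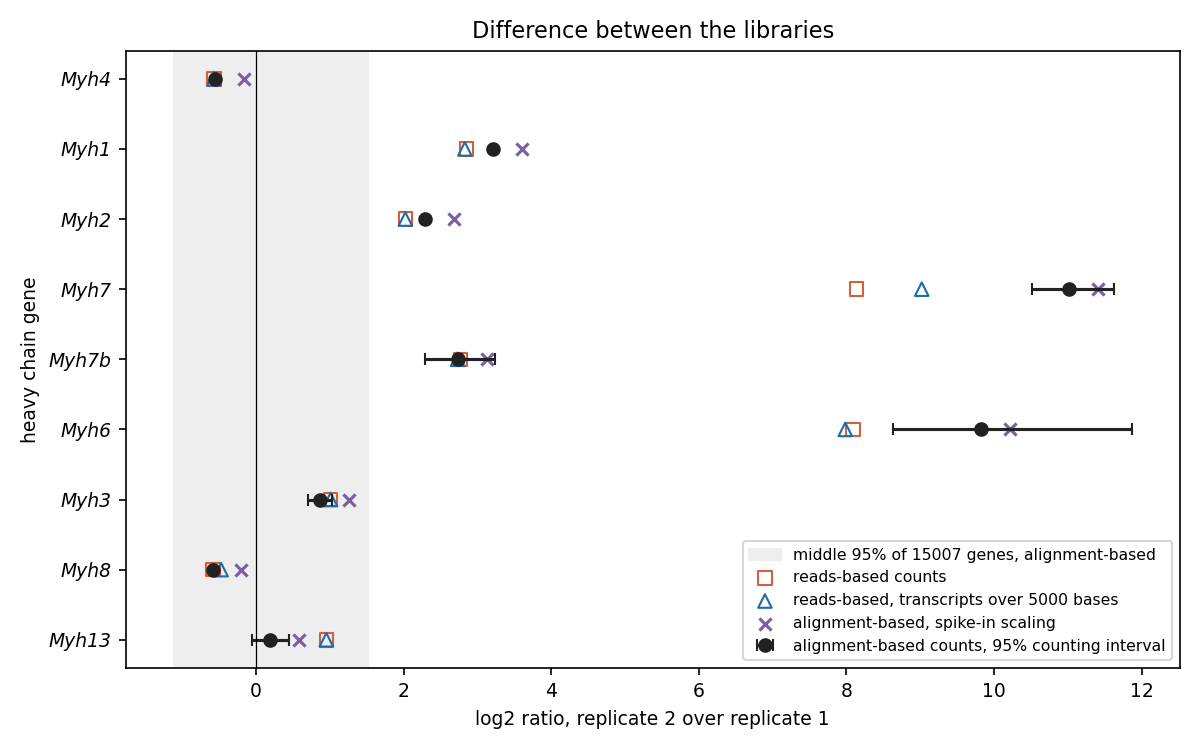
Log2 ratio of each heavy chain gene, replicate 2 over replicate 1, with filled points and 95% counting intervals from the alignment-based counts, open symbols from the reads-based counts and crosses for scaling by spike-ins; the grey band is the middle 95% of all genes tested. Myh1, Myh2, Myh7, Myh7b and Myh6 lie right of the band, and the open symbols of Myh7 and Myh6 lie well left of the filled points.

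All 9 genes passed the minimum mean count of 10. Of them, 5 were over 2-fold higher in replicate 2 and 0 were over 2-fold lower, beside 4.62% higher and 3.1% lower among the 15007 genes that passed. The middle 95% of all genes ran from -1.12 to 1.52 on the log2 scale, and the median of all genes was -0.0028. Scaling by the spike-in totals moved every gene by 0.39, which left Myh4 at -0.17 and Myh8 at -0.20 and put Myh3 at 1.26, a sixth gene past 2-fold. In the reads-based table Myh3 was also just past 2-fold, at 1.01, with Myh1 at 2.86 and Myh2 at 2.03.

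By mean over the libraries the order of levels was Myh4, Myh1, Myh2, Myh7, Myh8, Myh6, Myh3, Myh7b and Myh13. Of neighbours in that order, only Myh4 and Myh1 had ranges of mean ± SD that did not overlap. Myh1 (678 ± 773 TPM, SD, n = 2), Myh2 (437 ± 411), Myh7 (236 ± 334), Myh8 (133 ± 39.5) and Myh6 (48.4 ± 68.2) overlapped each other. Myh7b (1.52 ± 1.64) overlapped both Myh3 (3.58 ± 1.46) and Myh13 (1.49 ± 0.134), while Myh3 lay above Myh13 in both libraries. Compared within each library, Myh2 was above Myh7, Myh8 above Myh6 and Myh3 above Myh7b in both, by alignment.

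The share of each chain depended on which transcripts were counted. In replicate 2 the alignment-based table gave Myh1 9.41%, Myh2 5.59%, Myh7 3.63% and Myh6 0.742% of heavy chain TPM, while the reads-based table gave 15.4%, 5.23%, 2.35% and 0.290%. With transcripts over 5000 bases alone, the tables lay close for these chains in replicate 2: Myh4 held 81.7% by alignment and 81.8% in the reads-based table, Myh1 9.33% and 9.34%, Myh2 5.65% and 5.57%, Myh7 2.42% and 2.53%, and Myh6 0.129% and 0.130%. In replicate 1 Myh4 then held 97.3% by alignment and 97.2% in the reads-based table, Myh1 0.830% and 1.06%, Myh2 0.930% and 1.11%, and Myh8 0.878% and 0.610%. Myh8 stayed further apart in replicate 2, with 0.727% by alignment and 0.549% in the reads-based table, as did Myh7 in replicate 1, with 0.00095% by alignment and 0.0039% in the reads-based table.

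**Figure D3:**
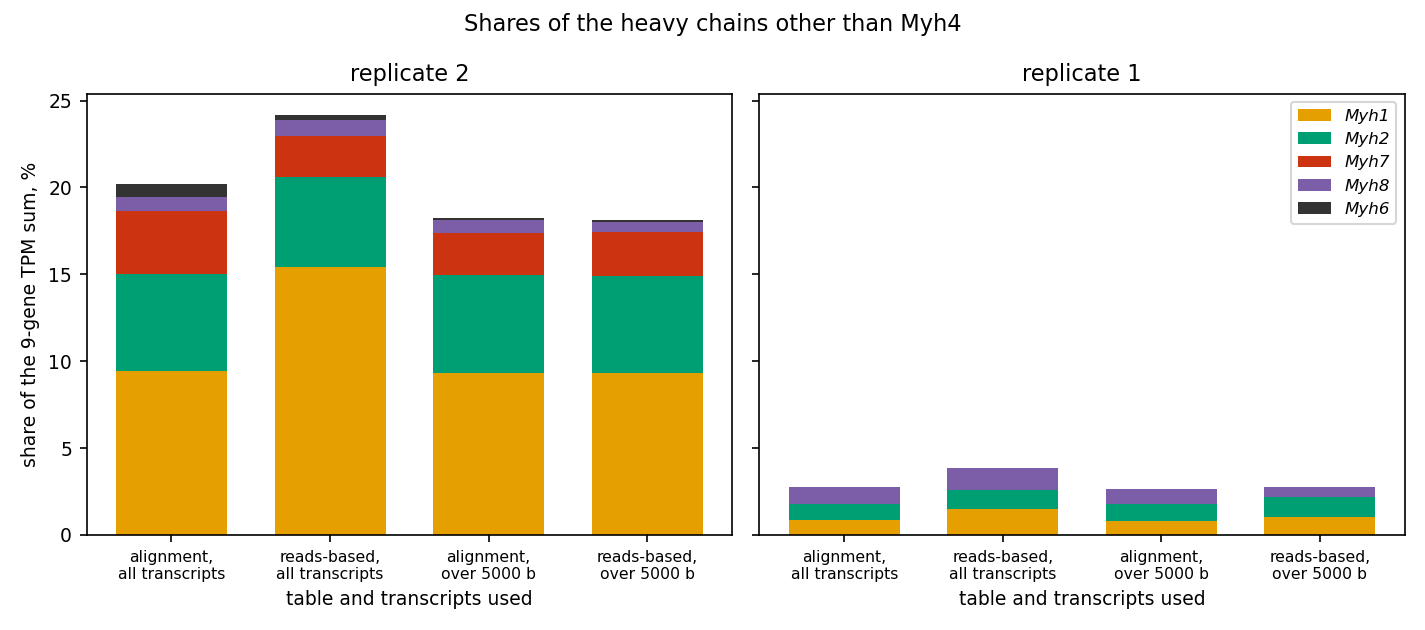
Share of the summed TPM of the 9 genes held by Myh1, Myh2, Myh7, Myh8 and Myh6 (stacked bars, percent), with replicate 2 at left and replicate 1 at right, for each table with all transcripts and with transcripts over 5000 bases alone; Myh4, Myh3, Myh7b and Myh13 are not drawn. The bars of replicate 2 have unlike heights with all transcripts and nearly the same height with full-length transcripts.

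Short annotated transcripts turn few counts into many TPM. In replicate 2 their removal closed most of the gap between the tables in TPM shares of Myh4, Myh1, Myh2, Myh7 and Myh6. In replicate 1 the Myh2 share stayed apart, at 0.930% by alignment and 1.11% in the reads-based table with full-length transcripts alone. The log2 ratios of Myh1 and Myh2 stayed apart too. With full-length transcripts they were 3.20 and 2.29 by alignment, against 2.83 and 2.02 in the reads-based table. Myh6-207, of 542 bases, held 26.8% of Myh6 counts and 82.8% of Myh6 TPM in replicate 2 by alignment, at 80.0 TPM, against 2.37 TPM in the reads-based table. It covers exons 36 to 39 of the 39 exons of Myh6-205 and differs from it within the transcript by 3 added bases at the last splice junction, in capitals below, and all but those 3 of its bases lie in exons of Myh6-205. The lines run from mm10 chr14:54941981-54942382 on the minus strand and end with the stop codon.

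Myh6-207: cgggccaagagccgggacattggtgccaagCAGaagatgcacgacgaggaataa
Myh6-205: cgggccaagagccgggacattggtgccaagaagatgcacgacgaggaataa

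The 465 bases of Myh6-207 before that junction matched Myh7 at 457 positions (98.28%), with an unbroken run of 173 bases, and 31.4% of its 100-base windows occurred in Myh7. Their most different stretch of 60 bases is shown because few bases tell a Myh6 read from a Myh7 read here, with the 5 differing bases in capitals (mm10, minus strand, chr14:54943186-54944279 for Myh6 and chr14:54971663-54972689 for Myh7, each with an intron between).

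Myh6: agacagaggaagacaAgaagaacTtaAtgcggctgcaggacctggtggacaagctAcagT
Myh7: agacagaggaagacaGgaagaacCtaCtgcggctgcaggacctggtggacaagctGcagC

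Myh6-206, a transcript of 718 bases with a retained intron, took the place of Myh6-207 in the reads-based table, at 27.0 TPM against 0.10 TPM by alignment in replicate 2. The full-length Myh6-205 was closer between them, at 15.8 TPM by alignment and 19.7 TPM in the reads-based table.

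In Myh1 the short transcript had more TPM in the reads-based table. Myh1-204, a transcript of 631 bases that begins near the 5′ end of the gene and has 359 bases in exons 2 to 4 of Myh1-203 and 272 outside its exons, stood at 39.2 TPM by alignment and 1166 TPM in the reads-based table in replicate 2. In replicate 1 it stood at 0.75 TPM by alignment and 94.96 TPM in the reads-based table. It held 43.9% of Myh1 TPM in replicate 2 in the reads-based table from 3.90% of the counts. Without it, Myh1 stood at 1185 TPM by alignment and 1492 TPM in the reads-based table in replicate 2. The remaining transcripts, Myh1-201, Myh1-202 and Myh1-203, have identical coding sequences and differ only outside them. Myh1-203 led by alignment in replicate 2, with 612 TPM, Myh1-201 led in replicate 1, with 82.8 TPM, and Myh1-201 led among them in the reads-based table in both libraries.

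Myh2 had the same kind of exchange between Myh2-201 and Myh2-203, which also share 1 coding sequence. By alignment Myh2-201 held 88.1% of Myh2 TPM in replicate 2 and 0.245% in replicate 1. The reads-based table gave it 25.8% in replicate 2 and 99.0% in replicate 1, the opposite order. The tables thus disagreed on which transcript of Myh1 led in replicate 2, and on which of Myh2 led in both libraries. In Myh3, too, the 3 transcripts encode the same chain, and Myh3-201 held 33.4% in replicate 2 and 95.7% in replicate 1 by alignment, against 35.3% and 43.2% in the reads-based table.

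Myh7 had 306 TPM on Myh7-201 in replicate 2, 82.3 TPM on Myh7-206, a retained-intron transcript of 595 bases, and 77.8 TPM on Myh7-207, of 360 bases. The reads-based table listed both short transcripts at 0 TPM there and put 123 TPM on the full-length Myh7-204. For Myh8, the reads-based table put 72.6 TPM in replicate 2, against 137 TPM in replicate 1, on the retained-intron transcript Myh8-203. That transcript was listed at 0 TPM in both libraries by alignment. Myh8-202 held 12.7 TPM in replicate 2, against 22.1 TPM in replicate 1, by alignment, and 0.135 TPM in replicate 2, against 0.150 TPM in replicate 1, in the reads-based table. Of Myh7b, 41.0% of the TPM in replicate 2 was on the retained-intron transcript Myh7b-203 and 55.2% on the full-length Myh7b-201. Myh13 counts were all on Myh13-201 by alignment, while the reads-based table put 43.2% of Myh13 TPM on Myh13-202 in replicate 2 and 0% in replicate 1.

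**Figure D4:**
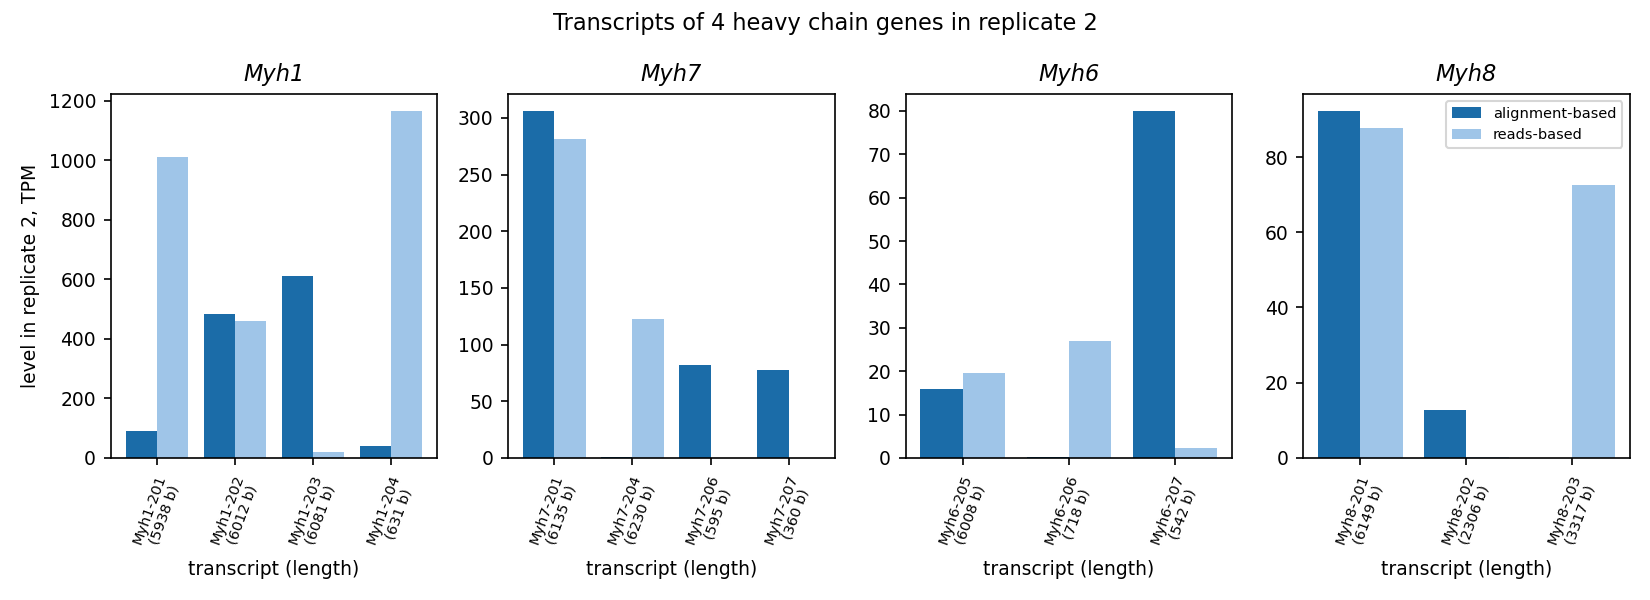
Level in replicate 2, in TPM, of the transcripts of Myh1, Myh7, Myh6 and Myh8 in the alignment-based table (dark bars) and the reads-based table (light bars), with transcript lengths in bases. The transcripts on which the tables differ widely include the short Myh1-204, Myh7-206, Myh7-207 and Myh6-207, and Myh8-203 of 3317 bases. They also include the full-length Myh1-201, Myh1-203 and Myh7-204.

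The start regions of the 4 chromosome 11 genes with the most counts hold a stretch of 14 bases in common. The windows below run from 250 bases before to 50 bases after the start that RefSeq gives for each gene (GRCm38.p6, the mm10 assembly), and are shown because Myh4 and Myh8 kept close ratios between the libraries while Myh1 and Myh2 moved together the other way. Capitals mark the longest stretch found in all 4 windows and any match to the MEF2 consensus, the site of a family of muscle transcription factors. The windows are chr11:67237562-67237861 for Myh4, chr11:67199852-67200151 for Myh1, chr11:67170777-67171076 for Myh2 and chr11:67276874-67277173 for Myh8, all on the plus strand.

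Myh4: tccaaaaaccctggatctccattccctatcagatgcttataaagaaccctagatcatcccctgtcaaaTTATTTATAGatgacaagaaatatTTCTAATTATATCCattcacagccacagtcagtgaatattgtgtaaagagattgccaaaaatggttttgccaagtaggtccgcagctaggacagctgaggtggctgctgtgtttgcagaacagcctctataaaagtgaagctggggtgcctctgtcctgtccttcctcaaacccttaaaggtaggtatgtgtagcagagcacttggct
Myh1: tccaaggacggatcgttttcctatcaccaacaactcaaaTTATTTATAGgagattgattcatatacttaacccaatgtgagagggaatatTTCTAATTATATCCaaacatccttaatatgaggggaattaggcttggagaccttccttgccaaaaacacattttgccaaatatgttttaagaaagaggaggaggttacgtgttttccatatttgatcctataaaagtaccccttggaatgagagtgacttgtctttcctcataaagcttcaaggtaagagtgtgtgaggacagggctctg
Myh2: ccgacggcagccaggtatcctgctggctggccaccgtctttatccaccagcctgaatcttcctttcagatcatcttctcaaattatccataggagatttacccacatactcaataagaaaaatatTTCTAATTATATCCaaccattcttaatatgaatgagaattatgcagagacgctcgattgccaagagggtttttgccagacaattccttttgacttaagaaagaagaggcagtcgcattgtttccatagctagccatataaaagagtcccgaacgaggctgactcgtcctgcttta
Myh8: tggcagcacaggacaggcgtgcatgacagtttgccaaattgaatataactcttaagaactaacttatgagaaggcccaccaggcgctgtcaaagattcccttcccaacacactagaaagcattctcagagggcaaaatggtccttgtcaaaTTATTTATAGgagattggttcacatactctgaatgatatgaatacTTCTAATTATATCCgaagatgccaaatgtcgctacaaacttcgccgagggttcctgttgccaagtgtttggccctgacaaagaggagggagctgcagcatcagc

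The 14 bases TTCTAATTATATCC occurred in these 4 of the 32851 RefSeq windows searched on both strands, and in no other. That the 4 hold it follows from how the stretch was picked. Its absence from the other windows is a count but says little, because few windows would hold any given 14 bases. It began 127 bases before a TATAAA in Myh4, 128 bases before in Myh1 and 135 bases before in Myh2. In Myh8 no TATAAA followed it within the window. The stretch began nearer to the end of the Myh8 window than any of these distances. A TATAAA at such a distance could therefore not have been found there. Relative to the RefSeq start, the TATAAA after the stretch lay at -31 in Myh4 and -32 in Myh1, but at 10, after the start, in Myh2. The windows are thus not placed alike about it. A MEF2 consensus match, on either strand, was present upstream of the 14 bases in Myh4, Myh1 and Myh8 and in 3.19% of all windows, with no match in the Myh2 window. An E-box (CANNTG, either strand) was present in the windows of Myh4 (3 matches) and Myh8 (2 matches), in neither Myh1 nor Myh2, and in 72.3% of all windows. CATTCC, the MCAT element, was present on either strand in Myh4 and Myh1 (1 match each) and in 14.7% of all windows, and TATAAA on either strand in 13.6%. The TATAAA counts include matches that lie inside the MEF2 matches of Myh4, Myh1 and Myh8. Of the other member windows none held a MEF2 match, each held at least 1 E-box, and CATTCC was present in those of Myh6 and Myh7 (1 of its 2 windows). The 14 bases were common to genes whose ratios differed in sign. These matches describe letters and do not show binding.

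Of the other transcripts inside the loci, the most abundant stayed within 2-fold. The intergenic 2310065F04Rik, between Myh3 and Myh2 on the minus strand, stood at 18.99 TPM in replicate 2, against 22.82 TPM in replicate 1 (log2 ratio -0.27). Myhas, antisense to Myh1 and reaching towards the Myh4 start, stood at 24.7 TPM in replicate 2, against 28.5 TPM in replicate 1 (-0.19). It did not share the rise of Myh1, and its sign depended on the scaling, since spike-in scaling moved every gene by 0.39. 9430073C21Rik, antisense to Myh2, had 21 counts in replicate 2 and 1 in replicate 1. Mhrt, the antisense gene at Myh7, had 0 counts in both gene tables. The microRNA genes Mir208a, Mir208b and Mir499, which lie in Myh6, Myh7 and Myh7b, had 0 counts in both libraries, and their annotated hairpins are shorter than the reads, so their hosts' difference could not be followed there.

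Other myosin heavy chains, among them those of non-muscle and smooth muscle cells, were low and mostly even. Of 5, 4 passed the minimum count, and Myh15, with 0 counts in replicate 2 and 2 in replicate 1, did not. Of those that passed, only Myh10, a non-muscle chain, was past 2-fold, at 8.13 TPM in replicate 2, against 1.97 TPM in replicate 1 (log2 ratio 1.72). Myh9, another non-muscle chain, stood at 18.96 TPM in replicate 2, against 19.55 TPM in replicate 1, Myh14 at 11.7 TPM and 9.77 TPM, and Myh11, of smooth muscle, at 5.52 TPM and 5.98 TPM, with replicate 2 given before replicate 1.

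Myosin light chains bind the neck of the heavy chain. The list of 8 genes also holds Mylk2, a light chain kinase and not itself a light chain (-0.36). Of the 8, 7 passed the minimum count, 3 were over 2-fold higher in replicate 2 and 0 lower, with a list median of -0.31. Mylpf, the fast regulatory light chain, stood at 14586 TPM in replicate 2, against 21943 TPM in replicate 1 (-0.62), and Myl1, the fast essential light chain, at 10129 TPM in replicate 2, against 14535 TPM in replicate 1 (-0.48), both close to Myh4. Myl2, the slow regulatory light chain, stood at 666 TPM in replicate 2, against 0.36 TPM in replicate 1 (11.18). Myl3, the slow essential light chain, stood at 465 TPM in replicate 2, against 0.08 TPM in replicate 1, from 12566 and 2 counts (12.23). Myl6b was higher too (2.01). Summed Myh4, Myh1 and Myh2 were 0.845 times Mylpf in replicate 2 and 0.713 times in replicate 1, and Myh7 was 0.708 times Myl2 in replicate 2, as ratios of TPM.

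Among 16 genes for folding of myosin and for the thick filament, 14 passed the minimum count, 2 were over 2-fold higher in replicate 2 and 1 lower, with a median of -0.17. Mybpc1, the slow form of myosin-binding protein C, stood at 495 TPM in replicate 2, against 54.9 TPM in replicate 1 (3.10), and the M-band gene Myom3 at 22.5 TPM in replicate 2, against 0.09 TPM in replicate 1 (8.33). Mybpc2, the fast form, stood at 1707 TPM in replicate 2, against 2802 TPM in replicate 1 (-0.71). Mybph was the gene over 2-fold lower, at 214 TPM in replicate 2, against 505 TPM in replicate 1 (-1.22). Myom1 (-0.23) and Myom2 (-0.38), both of the M-band, were within 2-fold.

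Of 29 genes known to act on heavy chain choice, all passed the minimum count and 5 were over 2-fold higher in replicate 2, 0 lower, with a median of 0.05. Esrrg stood at 11.9 TPM in replicate 2, against 0.71 TPM in replicate 1 (log2 ratio 4.26), and Esrrb at 2.59 TPM in replicate 2, against 0.15 TPM in replicate 1 (4.40); both are orphan nuclear receptors. Ppargc1a, the oxidative coactivator PGC-1 alpha, stood at 23.5 TPM in replicate 2, against 8.09 TPM in replicate 1 (1.46). Vgll2, a cofactor of TEAD factors, stood at 42.8 TPM in replicate 2, against 17.2 TPM in replicate 1 (1.29). The highest genes of the list were within 2-fold: Mef2c (-0.15), Sox6, a repressor of slow genes (-0.20), Tead1 (0.59) and Tbx15 (-0.21).

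**Figure D5:**
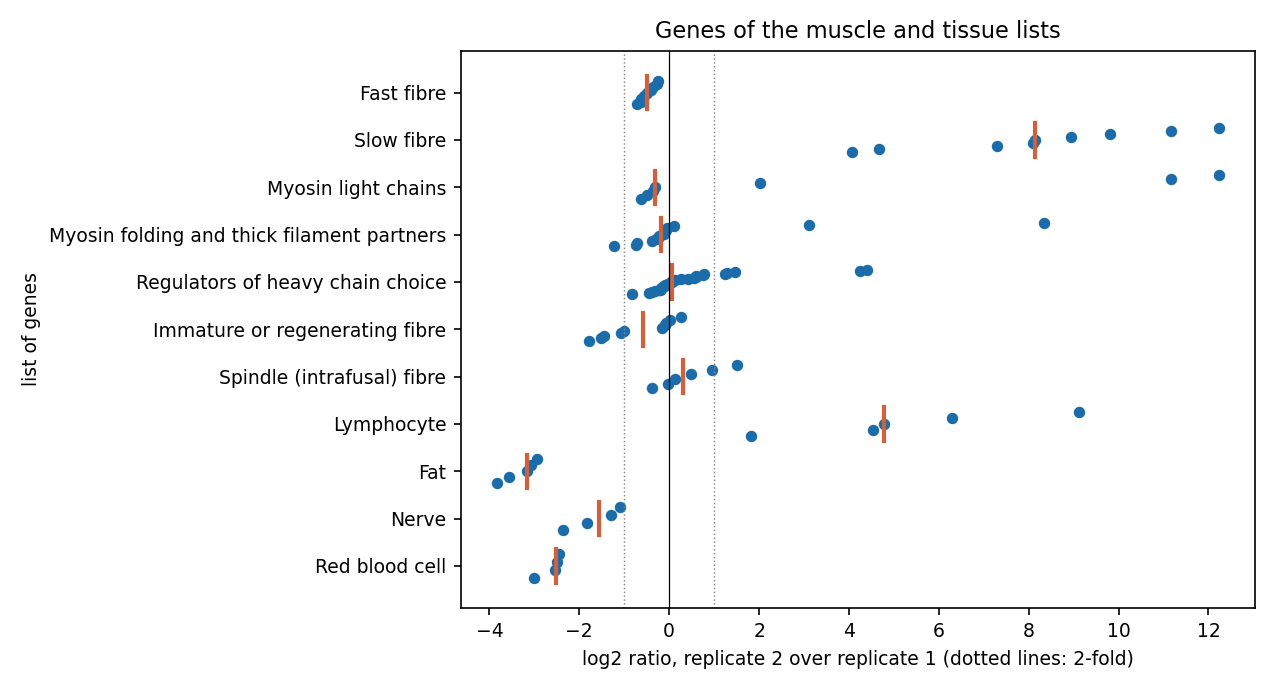
Log2 ratio, replicate 2 over replicate 1, of the genes of 11 lists that passed the minimum mean count of 10 (points), with the list median as a bar and 2-fold as dotted lines. Slow fibre genes lie far right of 0, fast fibre genes within 2-fold just left of it, and fat, nerve and red blood cell genes left of -1.

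Markers of fibre types other than the heavy chains were compared next. All 9 slow fibre markers, which include Myl2 and Myl3, were over 2-fold higher in replicate 2 (median 8.14), summing to 2726 TPM in replicate 2, against 24.7 TPM in replicate 1. The 9 fast fibre markers were within 2-fold (median -0.48), summing to 72319 TPM in replicate 2, against 100222 TPM in replicate 1. Of 10 immature fibre genes that passed, 5 were over 2-fold lower in replicate 2 and 0 higher, and 1 of 6 spindle fibre genes was higher. The other 5 immature fibre genes that passed were within 2-fold. They were H19 (0.02), which had the highest mean TPM of that list, Myod1 (0.27), Chrna1 (-0.06), Ncam1 (-0.08) and Myog (-0.17). Of the lower genes Actc1, the actin of heart and developing muscle, stood at 457 TPM in replicate 2, against 1251 TPM in replicate 1 (-1.44). Mymk, a myoblast fusion gene, had a log2 ratio of -1.78. Other tissue markers differed too. Fat markers summed to 24.0 TPM in replicate 2, against 215 TPM in replicate 1, nerve markers to 35.5 TPM and 116 TPM, and red blood cell markers to 296 TPM and 1692 TPM. Every gene of these 3 lists (5, 4 and 4 genes) was over 2-fold lower in replicate 2. Lymphocyte markers ran the other way, with 5 of 6 over 2-fold higher and sums of 6.65 TPM in replicate 2, against 0.86 TPM in replicate 1. The part of these tissues in the heavy chain differences was not tested.

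Among 3193 other genes with mean counts from 1000 upwards, those whose log2 ratios came nearest over the 2 libraries were Myl2, Myl3 (12.23) and Tnnc1 (9.80) for Myh7, Hspb7 (3.18), Mybpc1 and Lmod2 (3.42) for Myh1, Prkg1 (2.37), Dgat2 (2.45) and Ptpn3 (2.02) for Myh2, and C2cd2, Cd55 and Smtnl2 for Myh4, with Cd55 and C2cd2 at -0.56 and Smtnl2 at -0.55. With 2 libraries, many genes have ratios near that of Myh4.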

How the data were processed

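Tables of 2 total RNA libraries were used. The authors deposited gene and transcript tables made from alignments, with expected counts (estimated counts, not normalised) and TPM, and a second transcript table made from the reads, with deposited estimated counts and TPM. The deposited alignment tables also hold a posterior SD, used here as a score of assignment. Per the listings deposited with the tables, mm10 and GENCODE M21 were used; the program is not given in the sources used here. Counting intervals (95%) cover counting error only: the reads carry no molecular identifiers, so they may repeat molecules.

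Expected counts were rounded, scaled by TMM in edgeR 4.0.16 (R 4.3.3) and turned into log2 ratios with a prior count of 0.5. The 15007 genes whose mean count reached 10 form the background, and more than 2-fold was counted as a call. Reads-based counts were summed per gene through the gene name in each transcript's identifier. No test was possible in 1 group of 2 libraries, and replicate numbers come from the labels. Sequences came from GENCODE M21 transcripts and RefSeq promoter windows (GRCm38.p6), where all 9 genes matched. Proteins were aligned with mafft 7.526 in Python 3.11.15, and only lengths and identities are given. The ratio step was tested on simulated data. Alternatives were DESeq2 1.42.0 size factors, spike-in and library totals, TPM, a prior count of 5, other filters and folds, the reads-based table, and leaving out each library. Counting only transcripts over 5000 bases was chosen after seeing the data.

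The members and the 15 lists (122 genes) were chosen with earlier results of these data known. The genes named are all 9 members, transcripts holding at least 5% of a member, up to 4 of the highest genes of each list and those over 2-fold apart, and the 3 nearest genes for Myh1, Myh2, Myh4 and Myh7. Marker lists are given by their sums and by the few genes named. Some genes of the lists, and 1 marker list, are not reported here. The effect of castaneus alleles on read assignment was not analysed here.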

Additional observations from a re-analysis of the deposited data

How the results depend on the processing

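The share of Myh4 in replicate 2, 79.8% of heavy chain TPM, was 81.4% in estimated counts, 75.7% in the reads-based table, 81.1% among the 4 adult limb chains, 81.7% with transcripts over 5000 bases and 81.8% with those in the reads-based table. In replicate 1, 97.2% became 97.3% in counts (97.26%), 96.1% in the reads-based table, 98.2% among the 4 chains and 97.3% (97.335%) with transcripts over 5000 bases. The number of chains over 2-fold higher in replicate 2 was 5 or 6 under each alternative, 6 with spike-in scaling and in the reads-based table with or without short transcripts, and 0 were lower under any. Log2 ratios of the 9 chains moved by more than counting error in 27 cases and by less in 45, none with a change of sign. Shares of single transcripts in their gene moved in 66 cases and did not in 38; the cause was not tested. Each mean rests on 2 libraries, so leaving 1 out gives the other's value. No paired analysis was possible because there is 1 group. Depth limits Myh7 and Myh6 in replicate 1, at 28 and 4 counts.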
